A study of Schizosaccharomyces pombe with 25 samples.

Results

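The core histone genes of the fission yeast Schizosaccharomyces pombe were taken from the gene annotation that accompanies a chromatin immunoprecipitation sequencing series. The members are the 9 genes named hta1 and hta2 (histone H2A), htb1 (H2B), hht1, hht2 and hht3 (H3) and hhf1, hhf2 and hhf3 (H4), chosen by name and all found, out of 7015 annotated genes and 5123 nuclear protein-coding genes. The series listed 25 samples in 13 groups, with no replicate measurement among the files used here. CENP-A was precipitated in 9 samples, of which 4 (1 each of pht1∆, swr1∆, msc1∆ and wild type) came from cells labelled cc2∆:cc1, in which core DNA of centromere I stands in place of that of centromere II, and 5 (1 each of pht1∆, swr1∆ and msc1∆ and 2 of wild type) had no such mark. Myc-tagged H2A.Z was precipitated in 12 samples (4 each of swr1∆, msc1∆ and wild type), and Myc-tagged Swr1 and Flag-tagged Msc1 in 2 wild-type samples each; the tagged proteins were expressed in the strains they were precipitated from. No sample's value or sequencing depth enters below, so the results are positions, lengths and sequences of single genes, which have no replicate error and were not tested.

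Core histones form the protein spool around which DNA is wrapped in a nucleosome: an H3–H4 tetramer in the middle, flanked by H2A–H2B dimers. Histone gene transcription in this yeast rises as DNA is replicated, and a GATA-type factor, Ams2, and a repeated AACCCT element upstream of the genes are known to take part in its control. Variant histones replace a core histone at particular places. H2A.Z, encoded by pht1, replaces H2A and is placed by the Swr1 remodeller. CENP-A, encoded by cnp1, replaces H3 at centromeres.

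Every core histone gene carried the AACCCT element as a tandem pair upstream, and neither variant gene did. The genome sequence was read on assembly ASM294v3 with the RefSeq gene positions, since the deposited positions belong to a modified form of ASM294v2. The motif AACCCT was searched on both strands from 250 bases before to 50 bases after the annotated gene start. It was chosen because it was already known upstream of these genes, so matches at them were foreseen. It was found for 9 of 9 core histone genes, against 9.7% of 5113 nuclear protein-coding genes. The tandem form AACCCTAACCCT, which contains the single motif, was likewise found upstream of 9 of 9, against 0.391% (20 genes). It occurred 19 times in the nuclear genome. At the histone genes these were 5 sites, because the members of a divergent pair share 1 site between them. Both motifs had 0 matches in the windows of pht1 and cnp1. In the 500 bases before the start codon, AACCCT was found for 9 of 9 core histone genes against 15.2% of all coding genes, and its tandem form for 9 of 9 against 0.352%. In the 250 bases before the start codon, AACCCT was found for 7 of 9 against 8.47% and the tandem form for 7 of 9 against 0.235%, with hta1 and hhf1 missing. pht1 and cnp1 had 0 matches to either motif in these windows too.

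To show the element in its surroundings, the sites of hta2 and of the H3–H4 pairs follow, 4 of the 5; the sequence at hta1/htb1 is not shown and not compared. Each is written 5′ to 3′ on the strand that reads AACCCT, with the tandem element in capitals and 9 bases on each side (RefSeq, ASM294v3).
hta2, chrI:4053362-4053391, minus strand: atccatcaaAACCCTAACCCTgtatattgc
hhf1/hht1, chrI:4699643-4699672, plus strand: ctgcatcaaAACCCTAACCCTgcttttgat
hhf2/hht2, chrII:1365051-1365080, minus strand: gtcaatcacAACCCTAACCCTgatttaaga
hht3/hhf3, chrII:3529618-3529647, plus strand: tttgatcacAACCCTAACCCTttaattaaa

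These 4 sites shared a short stretch just before the element. Of 50 flanking positions compared (25 on each side), they had the same base at 5, a t at position -8 and the letters atca at positions -5 to -2, counted back from the first base of the element. The element read in the direction of an H2A gene at hta1/htb1 and hta2, of the H3 gene hht1 at hhf1/hht1, and of an H4 gene at hhf2/hht2 and hht3/hhf3. In a shared stretch it therefore lay in opposite orientation to the partner gene.

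The element stood at different distances from the genes of a pair. It ended 172 bases before the start codon of htb1 and 377 bases before that of hta1. The corresponding distances were 165 bases for hht1 and 255 for hhf1, 86 for hht2 and 236 for hhf2, and 97 for hht3 and 128 for hhf3. For the single gene hta2 it was 123 bases. Measured to the transcript start of the RefSeq annotation instead, the 9 distances lay between 47 bases (htb1 and hht2) and 128 bases (hhf3, for which RefSeq gives no 5′ UTR). The other genes were hta2 and hhf1 at 52 bases, hht3 at 61, hht1 at 68, hhf2 at 75 and hta1 at 118.

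Whether the element was part of the transcript depended on the annotation. With the 5′ untranslated regions (5′ UTRs) of the deposited annotation, the element lay wholly inside the 5′ UTR of 3 genes, hta2, hht2 and hht3. With those of RefSeq it lay inside 0. The deposited 5′ UTR was longer than that of RefSeq for 7 of the 9 genes, and shorter for htb1 and hhf1.

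**Figure D1:**
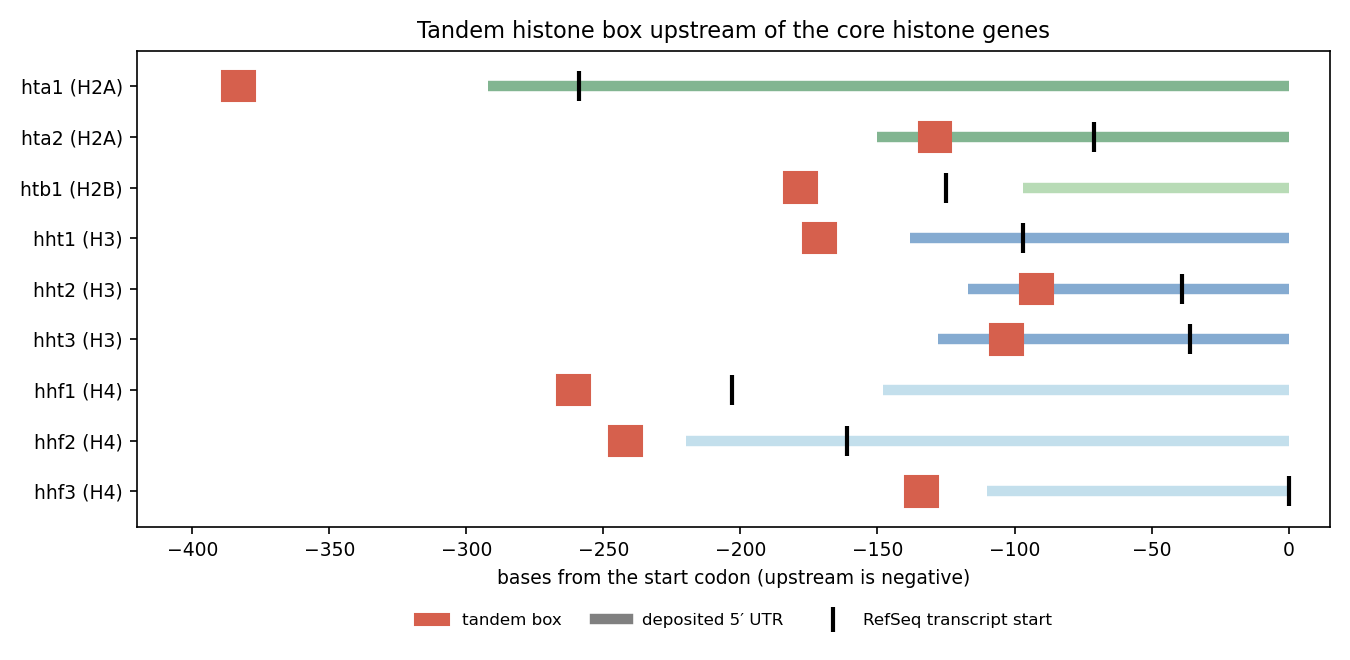
Position of the tandem AACCCT element (red) upstream of each core histone gene, in bases from the start codon. Bars are the 5′ UTRs of the deposited annotation and black ticks the RefSeq transcript starts. The element lies upstream of the black tick in all 9 genes and on the bar in hta2, hht2 and hht3.

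A TATATA motif, searched after these sequences had been seen, was also present in the same windows of 9 of 9 core histone genes, against 28.5% of all coding genes. The motif reads the same on both strands, and overlapping copies were counted apart. In the 500 bases before the start codon it was in 9 of 9, against 40.7%, and in the 250 bases before it in 7 of 9, against 24.6%. Its copy number in the first window ran from 1 (hht3 and hhf3) to 5 (hht2 and hhf2), and the windows of a pair overlap, so partners share copies. The commonly searched form TATAAA was in 5 of 9, against 48.1%, in 7 of 9 in the 500 bases before the start codon, against 70.3%, and in 5 of 9 in the 250 bases before it, against 43.9%. For pht1 neither form was in the first window, but the 500 bases before its start codon held TATATA 1 time, 305 bases from it, and TATAAA 4 times. For cnp1 TATATA was in none of the 3 windows. TATAAA was 1 time in its first window, 232 bases before the gene start, and 3 times in the 500 bases before its start codon. A match describes the letters only and is not evidence of a binding site.

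The core histone genes were arranged in 5 places, as 4 divergent pairs and 1 single gene. On chromosome III, hta1 (SPCC622.08c, minus strand, 1411144 to 1412214) and htb1 (SPCC622.09, plus strand, 1412387 to 1413677) pointed away from each other, pairing H2A with H2B. Each H3 gene was paired in the same manner with an H4 gene. On chromosome I these were hhf1 (SPAC1834.03c, minus, 4698773 to 4699544) and hht1 (SPAC1834.04, plus, 4699691 to 4700560). On IIc, the name the authors gave to chromosome II with the exchanged centromere core, they were hhf2 (SPBC8D2.03c, minus, 1364189 to 1365043) with hht2 (SPBC8D2.04, plus, 1365041 to 1365818), and hht3 (SPBC1105.11c, minus, 3527950 to 3528807) with hhf3 (SPBC1105.12, plus, 3528807 to 3529538). In the hht3/hhf3 pair it was H3 that lay on the minus strand, and in the other H3–H4 pairs H4. The second H2A gene, hta2 (SPAC19G12.06c, chromosome I, minus, 4052446 to 4053397), had no divergent partner.

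Divergent neighbours are common in this compact genome, and the histone pairs were close examples of them. A divergent coding neighbour was found for 8 of 9 core histone genes, against 54.7% of all nuclear coding genes. The distance between the start codons was 237 bases for hht3/hhf3, 334 for hhf2/hht2, 432 for hhf1/hht1 and 561 for hta1/htb1. The median over all 1401 divergent coding pairs was 1018 bases, with quartiles of 590 and 1638. All 4 histone pairs were thus below the lower quartile. The percentages of divergent pairs that were closer were 5.78% for hht3/hhf3, 11.1% for hhf2/hht2, 15.7% for hhf1/hht1 and 23.5% for hta1/htb1.

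**Figure D2:**
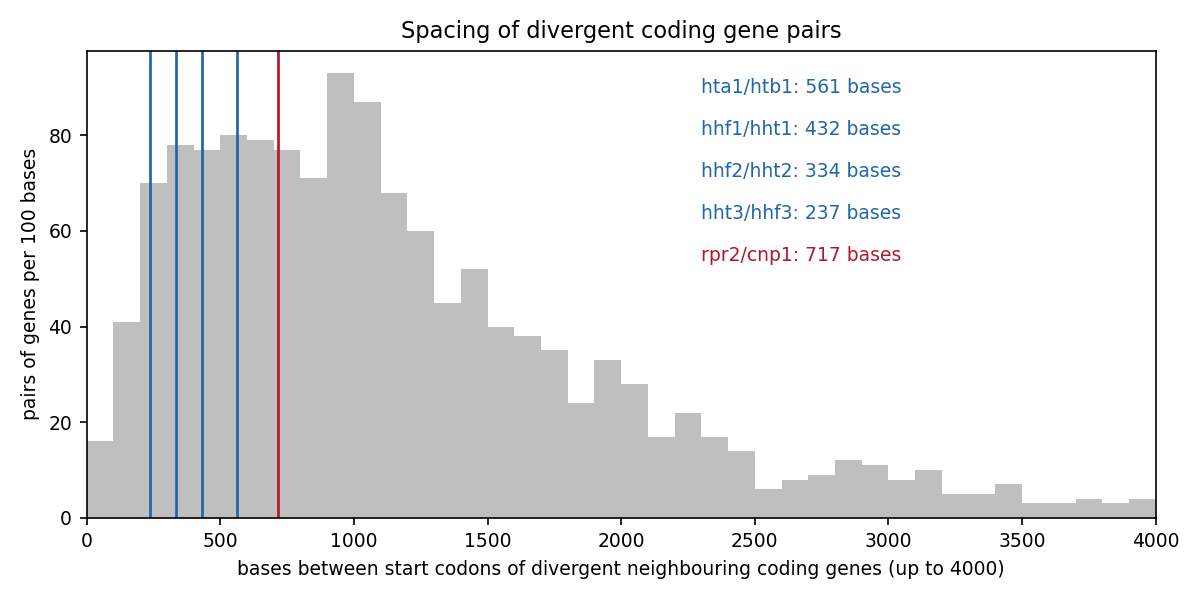
Histogram of the bases between start codons for divergent neighbouring coding genes of the deposited annotation, in bins of 100 bases up to 4000 (41 pairs further apart are not drawn). Blue lines mark the 4 histone pairs (237 to 561 bases) and the red line the pair of cnp1 with rpr2 (717 bases). The blue lines stand in the left part of the distribution, below its median of 1018 bases.

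Transcript starts of a pair lay close together or overlapped. The deposited transcripts of hhf2 and hht2 overlapped by 3 bases and those of hht3 and hhf3 by 1 base at their 5′ ends. There were 146 bases between hhf1 and hht1 and 172 between hta1 and htb1. The median over all divergent coding pairs was 500 bases. By this measure 15.6% of divergent pairs were closer than hhf2/hht2 and 15.9% closer than hht3/hhf3. The shares were 31.1% for hhf1/hht1 and 33.1% for hta1/htb1, so these pairs were not below the lower quartile. In the deposited annotation, overlapping transcripts were therefore found in 2 of 4 histone pairs, hhf2/hht2 and hht3/hhf3, against 16.1% of divergent coding pairs. RefSeq placed the starts further apart in these 2 pairs, at 134 bases for hhf2/hht2 and 201 for hht3/hhf3, and there were 132 for hhf1/hht1 and 177 for hta1/htb1. No histone pair overlapped in RefSeq, where 1.93% of divergent coding pairs did. The start codons stood at the same distances in both annotations.

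The stretches between start codons were somewhat richer in G and C than most divergent stretches. Their GC content was 32.4% for hhf1/hht1, 32.9% for hht3/hhf3, 35.1% for hta1/htb1 and 36.8% for hhf2/hht2, against a median of 31.7% over 1383 divergent stretches of at least 100 bases. The hhf2/hht2 stretch was richer than 95.2% of them.

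The variant genes each had a divergent coding gene upstream, as 8 of 9 core genes did, but it was not a histone gene. pht1 (SPBC11B10.10c, IIc, minus, 1502203 to 1503468) and cnp1 (SPBC1105.17, IIc, plus, 3537331 to 3539313) were paired with no histone gene. The coding gene upstream of cnp1 was the divergent rpr2, with 717 bases between start codons, and 32.3% of divergent pairs were closer. Between the deposited transcript starts of rpr2 and cnp1 there were 110 bases, with 27.4% of divergent pairs closer, and 437 bases in RefSeq. The deposited gap was smaller than that of hhf1/hht1 (146) and hta1/htb1 (172), though in RefSeq it was larger than in all histone pairs. The transcript of new19, a coding gene read in the same direction as cnp1, ended nearer to it, at 68 bases. Upstream of pht1 it was the divergent shy1, with 2356 bases between the coding sequences and 1702 between the transcripts. A tRNA gene and an rRNA gene lay between the transcripts of pht1 and shy1. cnp1 stood 7.79 kb from the H3–H4 pair hht3/hhf3 (7792 bases from the end of hhf3), with 5 protein-coding genes lying wholly between them. pht1 stood 136 kb from hht2. Neither H2A gene was on the chromosome of pht1.

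**Figure D3:**
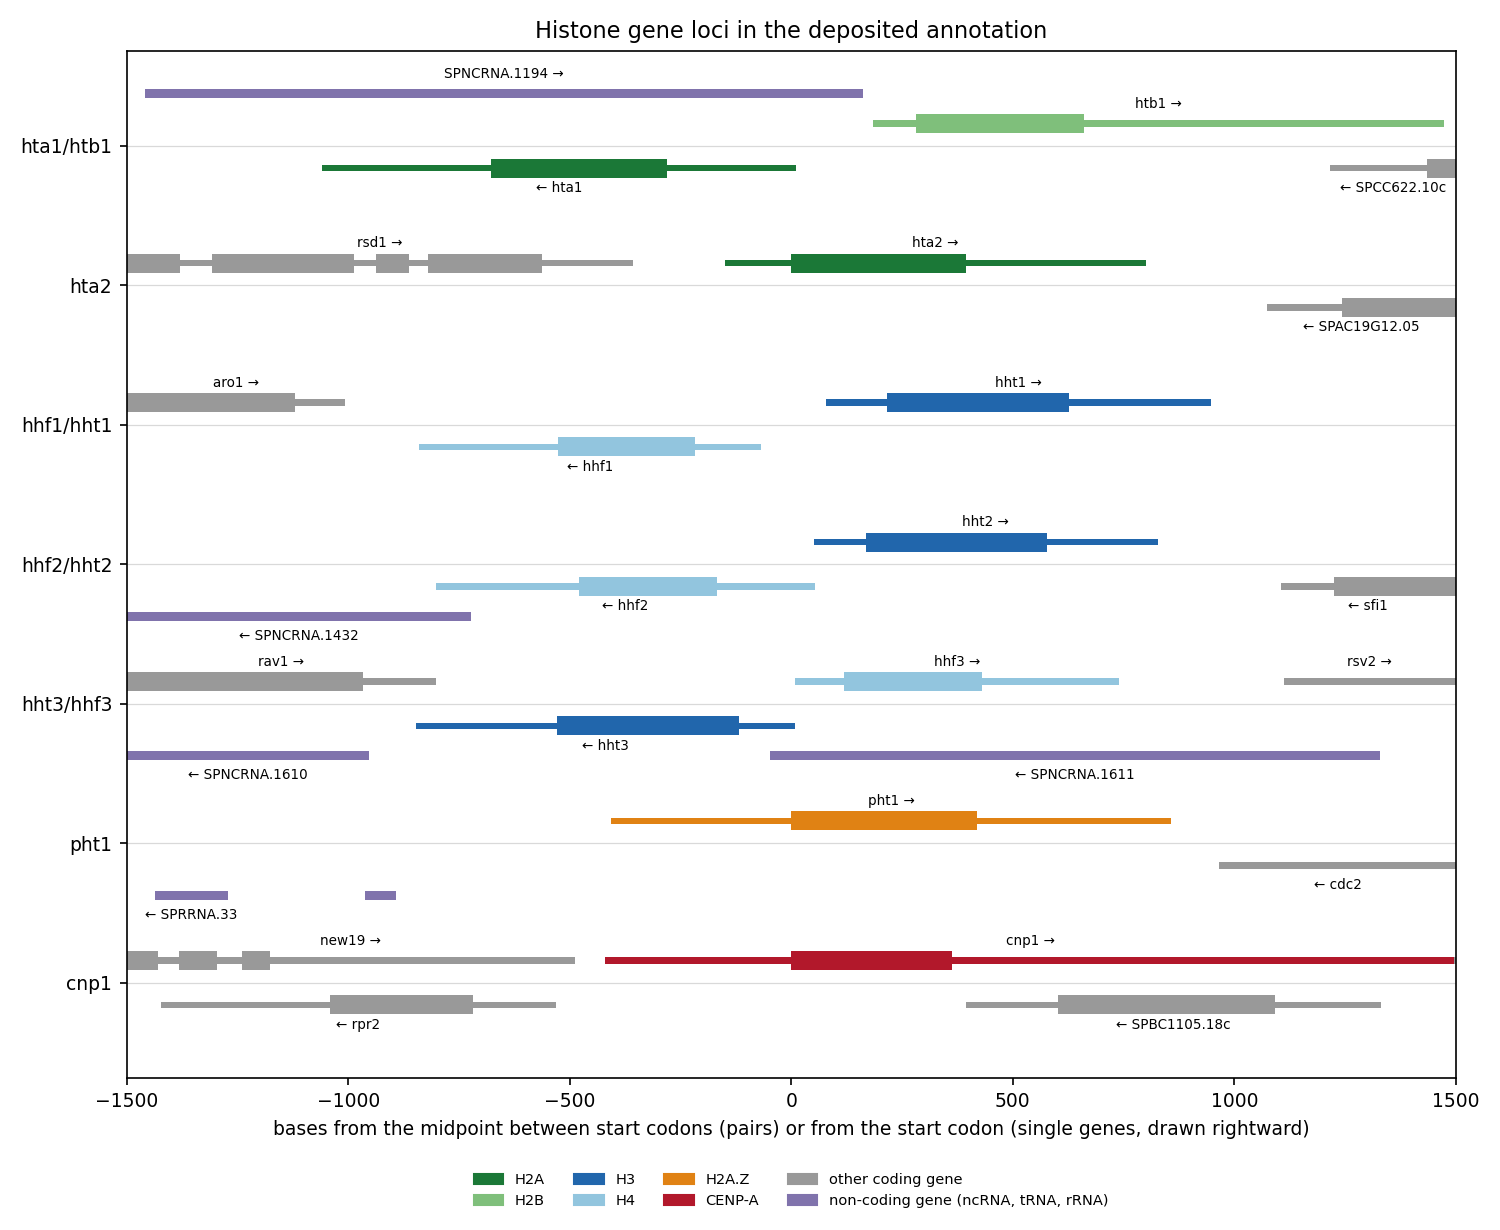
Map of the 5 core histone loci and of pht1 and cnp1 in the deposited annotation, in bases from the midpoint between start codons (pairs) or from the start codon (single genes, drawn to the right). Thick boxes are coding sequence, thin boxes untranslated regions or introns, grey boxes other coding genes and purple bars non-coding genes. Genes above a line are read to the right. SPNCRNA.1194 runs over the whole of hta1 and SPNCRNA.1611 over the whole of hhf3.

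At their 3′ side, 7 of 9 core genes faced a convergent coding neighbour, against 54.9% of all nuclear coding genes. The transcript of htb1 overlapped that of SPCC622.10c by 258 bases, and the transcript of hht3 overlapped by 46 bases that of rav1, a gene for assembly of the vacuolar proton pump. hhf1 ended 166 bases from aro1, a gene of aromatic amino acid synthesis. hta2 ended 271 bases from SPAC19G12.05, hht2 276 bases from sfi1, a gene of the spindle pole body, and hta1 1000 bases from SPCC622.07. For hhf3 the next coding sequence, that of SPBC1105.13c, was also convergent, with 854 bases between the transcripts, but the transcript of rsv2, read in the same direction as hhf3, began nearer, at 371 bases. Downstream of hht1 and hhf2 the neighbours pointed the same way, alg9 at 1695 bases and vps68 at 893 bases. Upstream of hta2, rsd1 pointed the same way at 206 bases. pht1 was convergent with cdc2, the gene of the main cell cycle kinase, at 107 bases. The transcript of cnp1 covered the whole convergent gene SPBC1105.18c (939 bases) and overlapped SPBC887.01 by 67 bases.

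The coding sequences were short and unsplit. With the stop codon, the H3 genes each had 411 coding bases (136 amino acids), the H4 genes 312 (103), hta1 399 (132), hta2 396 (131) and htb1 381 (126). The median over nuclear protein-coding genes was 1137 bases, and 5.06% (H4) to 11.03% (H3) of genes were shorter than the members. pht1 had 420 coding bases (139 amino acids) and cnp1 363 (120). An intron was absent from 9 of 9 core histone genes and from pht1 and cnp1, against 51.1% of nuclear coding genes without one. RefSeq gave the same count for the core genes, 9 of 9, against 52%.

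Untranslated sequence made up about as much of the transcripts as coding sequence, or more. It was 47.2% of the hht2 transcript, the lowest share, and 70.5% of that of htb1, the highest among core genes. It was 66.8% for pht1 and 81.7% for cnp1.

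The 5′ UTRs of the core genes were of ordinary length for this genome, and their 3′ UTRs were longer than the median. In the deposited annotation the 5′ UTR was 97 bases for htb1, 110 for hhf3, 117 for hht2, 128 for hht3, 138 for hht1, 148 for hhf1, 150 for hta2, 220 for hhf2 and 292 for hta1. Their median was 138 bases, against 155 for all coding genes, and 7 of 9 were below that of all genes. This order against all genes turned round in RefSeq, with a median of 97 bases for the core genes and 79 for all genes, and 5 of 9 above it. The variant genes had longer 5′ UTRs, 407 bases for pht1 and 420 for cnp1, but in RefSeq cnp1 had 97 and pht1 383.

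The 3′ UTR lengths were the same in both annotations for 9 of 9 core genes. They were close to each other in the H4 genes (310 bases for hhf3, 312 for hhf1 and 323 for hhf2) and in 2 of the H3 genes (319 for hht3 and 321 for hht1), with 250 for hht2. They were 380 bases for hta1, 406 for hta2 and 813 for htb1. All 9 exceeded the median of all coding genes, 245 bases, hht2 by the smallest margin. Their median was 321 bases. The 567 other coding genes of at most 411 coding bases had median UTRs of 86 bases (5′) and 213 bases (3′). All 9 core genes were above both of these medians in the deposited annotation. pht1 had a 3′ UTR of 439 bases and cnp1 one of 1200 bases.

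**Figure D4:**
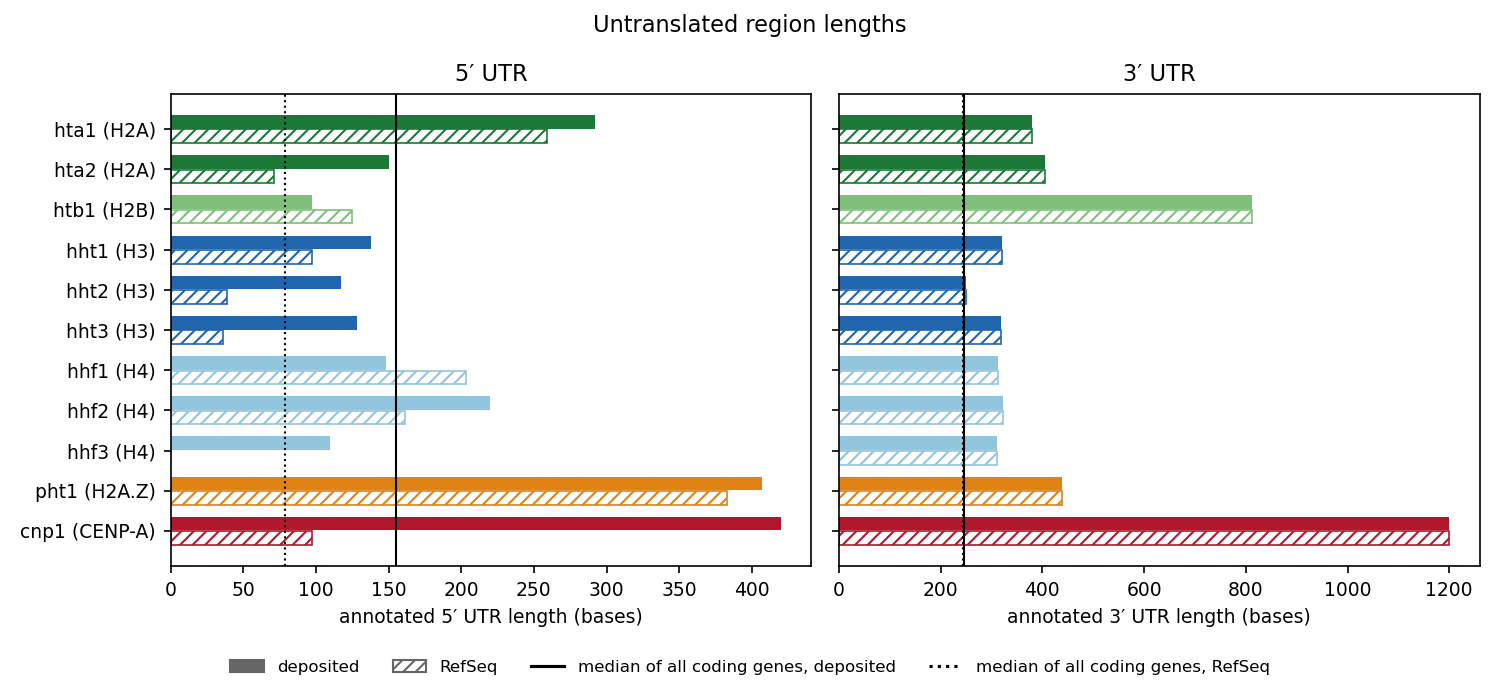
Length of the 5′ UTR (left) and 3′ UTR (right) in bases for the 9 core histone genes and, at the bottom, pht1 and cnp1, in the deposited annotation (filled) and in RefSeq (hatched). The solid and dotted lines give the medians of all nuclear coding genes in the deposited annotation and in RefSeq. The 3′ UTRs are equal in both annotations, while the 5′ UTR of hhf3 is 110 bases in the deposited annotation and 0 in RefSeq.

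Annotated non-coding RNA genes overlapped 4 of 9 core histone genes by at least 1 base, against 25.2% of nuclear coding genes. Opposite-strand overlap was found for 2 of 9, against 21.2%, overlap with the coding span for 2 of 9, against 15.8%, and cover of at least 50% of the gene for 2 of 9, against 10.2%. In each case these were hta1 and hhf3. SPNCRNA.1194 (chromosome III, 1410745 to 1412364, plus strand) covered 100% of hta1 on the opposite strand and 78.8% of the stretch between the hta1 and htb1 start codons. SPNCRNA.1611 (IIc, 3528749 to 3530128, minus strand) covered 100% of hhf3 on the opposite strand, 70.9% of the stretch between hht3 and hhf3, and the first 59 transcribed bases of hht3 on its own strand. SPNCRNA.1432 (IIc, 1363471 to 1364267) overlapped 79 bases at the 3′ end of hhf2 on the same strand. hta2, htb1, hht1, hht2 and hhf1 had no overlapping non-coding gene, nor had pht1 and cnp1.

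RefSeq lists many more non-coding RNA genes and gave another picture. There, 6 of 9 core histone genes were overlapped, against 76.6% of nuclear coding genes. Each of the 6 had an opposite-strand overlap, 6 of 9 against 75.4%. On the opposite strand, SPNCRNA.3808 covered 27.7% of hta2, SPNCRNA.7358 11.4% of htb1, SPNCRNA.4110 49.9% of hht1 and SPNCRNA.5147 100% of hhf2. hhf1, hht2 and hht3 had none. For pht1, SPNCRNA.5214 covered 58.1% of the gene, and for cnp1 SPNCRNA.6173 covered 27.0% and SPNCRNA.6174 3.98%.

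The copies of H3, and those of H4, encode 1 protein each and differ in codons. The first 30 coding bases of each copy (RefSeq, ASM294v3) show the pattern. Capitals mark the positions where the 3 copies do not all share a base.
hht1, chrI:4699829-4699858, plus strand: atggctcgtacTaaAcaaacAgcTcgtaaG
hht2, chrII:1365158-1365187, plus strand: atggctcgtacCaaGcaaacTgcTcgtaaA
hht3, chrII:3529500-3529529, minus strand: atggctcgtacTaaGcaaacTgcAcgtaaA
hhf1, chrI:4699367-4699396, minus strand: atgtctggTcgtggTaaaggtggTaaaggT
hhf2, chrII:1364794-1364823, minus strand: atgtctggTcgtggAaaaggtggTaaaggA
hhf3, chrII:3529767-3529796, plus strand: atgtctggCcgtggTaaaggtggAaaaggT

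Within these stretches the H3 copies differed at 5 positions and the H4 copies at 4, all of them the last base of a codon. Over the whole coding sequence, hht1 and hht3 differed at 30 of 411 bases, hht1 and hht2 at 46, and hht2 and hht3 at 48. The number of amino acids that differed was 0 in each case. Identity was 92.7% for hht1/hht3, 88.8% for hht1/hht2 and 88.3% for hht2/hht3. Among the H4 copies, hhf1 and hhf3 differed at 21 of 312 bases (93.3% identity), and hhf2 differed from each of them at 27 (91.3%), again with 0 amino acids changed. At codon position 3 alone identity was between 67.2% (hht2/hht3) and 79.8% (hhf1/hhf3). In both families the copy of the hhf2/hht2 locus stood furthest from the others. The H2A genes hta1 and hta2 differed at 2 of 131 aligned amino acids (98.5% identity), and their coding bases were 86.8% identical.

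**Figure D5:**
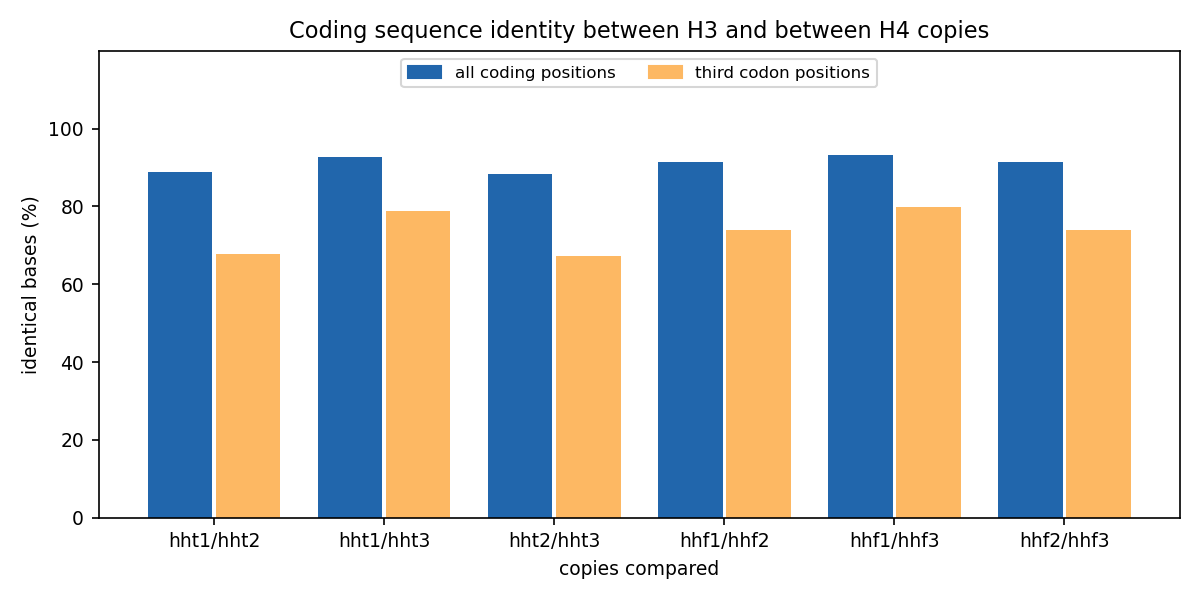
Share of identical bases (%) between the coding sequences of H3 copies (left) and of H4 copies (right), at all coding positions (blue) and at codon position 3 (orange). The blue bars lie between 88.3% and 93.3% and the orange bars between 67.2% and 79.8%.

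The variants were much further from the core histones than the copies were from each other. From translated coding sequences, pht1 matched hta1 at 75 of 131 aligned amino acids (57.3%) and hta2 at 76 of 130 (58.5%). cnp1 matched the H3 protein at 74 of 114 (64.9%).

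Nearly all coding positions of the copies could be told apart by short sequences. Of the 2904 positions in the coding sequences of the 9 genes, 99.7% had a 50-base sequence found once in the genome, counting both strands. The exceptions were 5 positions each in hhf2 and hhf3, which share an identical run of 54 bases. The other 7 of 9 core genes were unique at every position, against 96.1% of nuclear coding genes. With 36 bases the share was 94.8%. The copies hhf2 and hhf3 then had 88.8% unique positions, hht1 90.4%, and htb1, pht1 and cnp1 had 100%. No source used here states the read length of the samples.

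Core histone coding sequences were rich in G and C for this genome. Their GC content ran from 45.4% (htb1) to 49.6% (hht2), all above the median of nuclear coding genes of 39.6%, and 92.9% to 98.6% of genes were lower. pht1 had 43.6% and cnp1 42.1%, also above that median, with 87.6% and 79.1% of genes lower. At codon position 3 alone the core genes ran from 32.4% (hht3) to 47.6% (htb1), against a median of 32.8%, and 8 of 9 were above it. pht1 with 29.5% and cnp1 with 30.0% were below it.

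Genes for histone gene control and histone delivery had longer coding sequences than the histone genes. The list held 14 genes. It comprised ams2 and teb1 (transcription factors), hip1, slm9, hip3 and hip4 (the HIRA chaperone complex), pcf1, pcf2 and pcf3 (the CAF-1 chaperone), cia1 (the Asf1 chaperone), nap1 and nap2 (Nap1-type chaperones), and scm3 and sim3 (which serve CENP-A). Their median coding length was 1209 bases, against 396 for the core histone genes and 1137 for all coding genes. Their median 5′ UTR was 170 bases, against 138 for the core histone genes. An intron was absent from 10 of 14, against 51.1% of all coding genes, and present in ams2, teb1, hip1 and pcf2. A non-coding RNA gene overlapped 5 of 14, against 25.2% of all coding genes. The tandem element AACCCTAACCCT was upstream of 0 of 14, against 0.391% of all coding genes. At so low a share, its absence does not set this list apart.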

How the data were processed

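No sample value was used. The authors deposited a gene annotation whose start and end columns are 1-based positions in bases on build ASM294v2, per the submitters' processing notes, with chromosome II replaced by IIc. How IIc was assembled is not stated in the sources used. Tools listed in those notes were deepTools 2.5.3, bedtools, Bowtie2, BWA and SAMtools, without settings. The depth of the samples is unknown here, and the other deposited reference files, a sequence list and an index table, were not used.

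The members, lists and motif were chosen with earlier results of these data known. Coding spans include start and stop codons; UTR lengths are exonic bases outside them. Percentiles are shares of genes or pairs with a lower value. Divergent pairs are adjacent nuclear coding genes, ordered by coding start, with the left one on the minus strand. Sequences were read from RefSeq ASM294v3 with RefSeq positions; the coding spans of the 11 histone genes had equal lengths in both annotations, and hht3, hhf3 and cnp1 stood 850 bases further right in RefSeq. Of the 14 control genes, 13 were found by their deposited name and teb1 (deposited as mug152) through the RefSeq gene table. Proteins were aligned globally (BLOSUM62, gap penalties 11 and 1). Genes named are the members, variants, neighbours, overlapping non-coding genes and the control list; rsv2, new19 and SPBC887.01, for their transcripts, and the other genes with the tandem element were named after their values were seen. The sequence around 1 of the 5 tandem elements is not reported here. Scripts were tested on simulated annotation. Tools were Python 3.11.15, numpy 2.4.6, scipy 1.17.1, Biopython 1.88 and matplotlib 3.10.9.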

Additional observations from a re-analysis of the deposited data

How the results depend on the processing

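The single annotation and genome give no replicate spread. The median spacing of the 4 histone pairs was 383 bases between start codons, in RefSeq too, and 72.5 bases between deposited transcript starts, with -3 bases for hhf2/hht2 and -1 for hht3/hhf3, where a negative value is an overlap. The median percentage of divergent pairs closer than a histone pair was 13.4%, 23.5% by transcript starts, and 19.4% among the 877 pairs with no gene of another type between them, which leaves 2 histone pairs. The median 5′ UTR of the core genes was 138 bases and 97 in RefSeq. The median share of genes with shorter coding sequence was 10.3%, and 8.68% among genes without an intron. Of 9 core genes, 4 were overlapped by a non-coding RNA gene, against 25.2% of all coding genes. The count became 2 when the coding span (15.8% of all coding genes), 50% of the gene (10.2%) or the opposite strand (21.2%) was required. In RefSeq it was 6 of 9, against 76.6%. The core share was thus above that of all genes in the deposited annotation and below it in RefSeq. The lowest identity between copies was 88.3%, and 67.2% at codon position 3. The 3′ UTR median, the absence of introns and the tandem element gave the same result under the alternatives run, except that a window of 250 bases before the start codon held the AACCCT element for 7 of 9, missing hta1 and hhf1. Of all coding genes, 8.47% held AACCCT in that window. The same window held TATATA for 7 of 9 core genes, against 24.6% of all coding genes. The 36-base sequences and the TATATA search were chosen after seeing the data. No paired analysis was possible because no sample value was used.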

Other observations

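Besides the 9 core histone genes, 11 nuclear coding genes had the tandem AACCCTAACCCT in the window from 250 bases before to 50 bases after the RefSeq gene start. They were named after the search had been seen. They were tif51, a translation factor gene, eft201, of a translation elongation factor, the chaperone genes hsp90, ssa1 and ssa2, tbp1, the gene of the TATA-binding protein, spi1, of the Ran GTPase, erg1, of sterol synthesis, ppc89, of the spindle pole body, and the genes bdf2 and SPAC27E2.11c. Whether the element has a role at these genes was not tested.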
